A study of Mus musculus with 2 samples.

Results

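Msc, Tcf21, Tbx1, Lbx1, Eya1 and Met, 6 regulators that act early in the muscle of the head and tongue, were read in single-cell RNA sequencing of the mouse mandibular prominence. The genes were taken by name from the 15944 genes listed for both libraries, and all 6 were found. Wild-type CD1 embryos without any added allele or agent gave 1 library of 7099 cells at embryonic day 11.5 (E11.5) and 1 library of 6318 cells at E13.5. The cells were freed with a cold-active bacterial protease, at 3 mg/ml for the younger and 5 mg/ml for the older tissue. How many embryos went into each pool, and of which sex, is not stated. Muscle cells were those of cluster 14 at E11.5 (151 cells, no deposited lineage name) and of clusters 1, 15 and 19 at E13.5 (509, 163 and 80 cells, deposited as tongue muscle). Because each stage is 1 library, stage, protease strength, embryos, their sex and library cannot be told apart, and with no replicates no test between stages was possible. Every interval below is an exact 95% interval that covers counting error only.

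Head muscle and limb or trunk muscle use the same MyoD family to become muscle, but different genes upstream of it. In the branchial arches, the T-box factor Tbx1 and the basic helix-loop-helix (bHLH) factors Msc (MyoR) and Tcf21 (capsulin) act before Myf5 and Myod1 in the muscle of the jaw. Most tongue muscle instead comes from occipital somites, whose precursors migrate into the floor of the mouth. The homeobox factor Lbx1 and the receptor tyrosine kinase Met, whose ligand is hepatocyte growth factor (Hgf), are known for their part in that migration. Eya1 is a phosphatase and transcriptional co-activator that works with homeobox factors in many tissues, muscle included.

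On build GRCm38 with the GENCODE M21 annotation, Msc lies at chr1:14753346-14755992 and Eya1 at chr1:14168954-14310235, both on the minus strand and 443 kb apart, with 0 annotated genes lying wholly between them. Tcf21 lies at chr10:22817281-22820174, Tbx1 at chr16:18580979-18590671 and Lbx1 at chr19:45232684-45235812, all 3 on the minus strand, and Met at chr6:17463800-17573980 on the plus strand. A gene on the other strand, Gm9947, overlaps Msc. It had 3 UMIs (unique molecular identifiers, each counting 1 RNA molecule) in E11.5 cluster 14 and 39 in E13.5 cluster 1, against 258 and 3176 for Msc. The sources do not say whether strand was used in counting, so reads of the pair may be split.

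The RefSeq promoter table (build GRCm38.p6, 250 bases before to 50 bases after each start) held 3 of the 6 genes, and Msc, Lbx1 and Eya1 were not in it. The promoters of Tcf21, Tbx1 and Met are shown because these are the 3 genes it held. E-box letters were searched because Msc and Tcf21 belong to a factor class that binds E-boxes. Whether either factor acts on these promoters was not tested. Capitals mark E-box letters (CANNTG, searched on both strands, of which CAGCTG is a special case). The lines give Tcf21 at chr10:22820094-22820393 on the minus strand, Tbx1 at chr16:18590622-18590921 on the minus strand and Met at chr6:17463707-17464006 on the plus strand.
Tcf21: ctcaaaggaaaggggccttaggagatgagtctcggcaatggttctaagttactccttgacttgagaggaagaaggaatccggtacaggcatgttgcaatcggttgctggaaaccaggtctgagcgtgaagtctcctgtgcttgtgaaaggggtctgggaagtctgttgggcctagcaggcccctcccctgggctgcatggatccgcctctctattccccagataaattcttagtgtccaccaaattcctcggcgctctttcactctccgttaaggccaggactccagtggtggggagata
Tbx1: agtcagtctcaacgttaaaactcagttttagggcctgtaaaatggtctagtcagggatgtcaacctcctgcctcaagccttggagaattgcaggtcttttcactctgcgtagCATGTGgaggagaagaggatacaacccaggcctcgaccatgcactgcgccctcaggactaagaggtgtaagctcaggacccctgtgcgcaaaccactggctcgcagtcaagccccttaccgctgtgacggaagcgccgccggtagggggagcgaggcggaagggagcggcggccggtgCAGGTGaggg
Met: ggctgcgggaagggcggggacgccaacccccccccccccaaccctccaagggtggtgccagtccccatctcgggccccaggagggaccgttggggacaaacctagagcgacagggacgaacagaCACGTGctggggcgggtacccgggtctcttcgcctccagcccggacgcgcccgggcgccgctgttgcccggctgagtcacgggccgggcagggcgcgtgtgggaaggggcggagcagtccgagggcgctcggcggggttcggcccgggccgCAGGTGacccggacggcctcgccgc
The Met window holds CACGTG and CAGGTG, the Tbx1 window holds CATGTG and CAGGTG, and the Tcf21 window holds 0 matches. A second Tbx1 start, at chr16:18588850-18589149, also had 0 matches. CANNTG occurs in 72.3% of the 32851 promoters of this length, so these matches are a description of the letters only. The variant CAGCTG (16.3% of promoters) and the T-box letters TCACACC (3.98%) were in 0 of the 4 windows.

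The muscle clusters carried the marker genes of skeletal muscle. All 11 listed markers had UMIs in E11.5 cluster 14 and E13.5 cluster 1, and all but Pax7, a gene of muscle progenitors, had UMIs in clusters 15 and 19. Myog, which drives differentiation, stood at 579, 222, 5564 and 2901 counts per 1000000 UMIs of the cluster (CPM) in clusters 14, 1, 15 and 19, and skeletal actin (Acta1) at 27.4, 9.06, 300.1 and 5652 CPM. Clusters 14 and 1 were mostly in S or G2M phase by the deposited calls (78.8% and 96.5% of cells), clusters 15 and 19 were not (15.95% and 0%). Cells of clusters 14, 1, 15 and 19 held a median of 11778, 19640, 15456 and 23711 UMIs. All 8 mesenchyme markers had UMIs in each muscle cluster, and their sum was 349 CPM in cluster 14 and 204 to 304 CPM at E13.5, where the highest clusters of the 2 libraries reached 2364 and 9097 CPM. The 2 libraries shared 71 cell barcodes, of which 1 muscle cell at E11.5 and 9 at E13.5 carried such a barcode.

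Msc, a bHLH repressor related to Tcf21, was high in the 2 cycling clusters and close to the level of other tissues in the rest. In E11.5 cluster 14 its level was 141 CPM (125 to 160, 258 UMIs), and in E13.5 cluster 1 it was 313 CPM (302 to 324, 3176 UMIs). Cluster 15 had 4.68 CPM (2.42 to 8.17, 12 UMIs) and cluster 19 had 1.03 CPM from 2 UMIs. The interval of cluster 15 overlaps that of all E13.5 cells outside muscle, 2.50 CPM (2.09 to 2.96), and lies above that of E13.5 erythroid cells, 0.279 CPM (0.00706 to 1.55). At E11.5 all cells outside muscle stood at 0.998 CPM, and the next cluster in order, mesenchyme cluster 16, at 3.05 CPM. At E13.5 the next was cluster 8 (9.15 CPM, 3.36 to 19.9), which was deposited unnamed and whose cells held a median of 935.5 UMIs. Muscle held 84.3% of the Msc UMIs of the E11.5 library and 96.0% of those at E13.5. Such shares, given below for the other genes too, also follow how much of a library is muscle. Muscle held 1826407 of all 49913485 UMIs in the younger library and 14665808 of all 67838169 in the older. The Msc level of muscle over that of all cells outside it was 141.5 in the younger library and 87.0 in the older.

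Tcf21, the other bHLH factor of the pair, was found in the same clusters but in the opposite order of stages. It stood at 80.5 CPM (68.0 to 94.6, 147 UMIs) in E11.5 cluster 14 and at 30.9 CPM (27.6 to 34.5, 314 UMIs) in E13.5 cluster 1. Clusters 15 and 19 had 1.95 CPM (5 UMIs) and 0.515 CPM (1 UMI). Outside muscle Tcf21 was close to absent at this depth, with 11 UMIs in 6948 cells at E11.5 and 10 UMIs in 5566 cells at E13.5. Muscle held 93.0% and 97.0% of its UMIs, and below the muscle clusters the neighbouring clusters in the order had overlapping intervals. The ratio of muscle to all cells outside it was 352 for Tcf21 in the younger library and 116 in the older.

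Tbx1 was present in all 4 muscle clusters. Its level was 107 CPM (92.3 to 123, 195 UMIs) in E11.5 cluster 14, 187 CPM (179 to 196, 1900 UMIs) in E13.5 cluster 1, 61.2 CPM (52.0 to 71.5, 157 UMIs) in cluster 15 and 81.9 CPM (69.7 to 95.7, 159 UMIs) in cluster 19. Cluster 1 was the highest and clusters 15 and 19 overlapped each other. Tbx1 also had a level in other tissues, and muscle held 45.8% of its UMIs in the E11.5 library and 79.9% in the E13.5 library. The larger share in the older library did not go with a higher ratio of muscle to all cells outside it. That ratio was 22.2 in the younger library and 14.4 in the older.

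Lbx1 was present in all 4 muscle clusters, from 33.0 to 57.2 CPM, a narrower range than that of the other 5 genes. It stood at 53.1 CPM (43.1 to 64.8, 97 UMIs) in E11.5 cluster 14 and at 57.2 CPM (52.6 to 62.0, 581 UMIs) in E13.5 cluster 1. Cluster 15 had 41.3 CPM (33.8 to 49.97, 106 UMIs) and cluster 19 had 33.0 CPM (25.4 to 42.1, 64 UMIs), and these 2 overlapped each other but not cluster 1. Outside muscle Lbx1 averaged 0.312 CPM in the E11.5 library and 0.564 CPM in the E13.5 library, and muscle held 86.6% and 96.2% of its UMIs. The ratio of muscle to all cells outside it was 170 for Lbx1 in the younger library and 90.8 in the older.

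Eya1 was not set apart in the cycling muscle clusters from the mesenchyme. It stood at 31.2 CPM (23.6 to 40.4, 57 UMIs) in E11.5 cluster 14, at 6.59 CPM (5.11 to 8.37, 67 UMIs) in E13.5 cluster 1, at 1.56 CPM (4 UMIs) in cluster 15 and at 1.03 CPM (2 UMIs) in cluster 19. The mesenchyme stood at 32.2 CPM (30.4 to 34.1) at E11.5, which overlaps cluster 14, and at 7.06 CPM (6.20 to 8.003) at E13.5, which overlaps cluster 1. The upper limits of clusters 15 and 19, 3.99 and 3.72 CPM, lay below the E13.5 mesenchyme. Muscle held 4.32% and 21.5% of the Eya1 UMIs. The ratio of muscle to all cells outside it was 1.19 (0.896 to 1.55) for Eya1 in the younger library and 0.991 (0.754 to 1.29) in the older. The highest clusters were mesenchyme cluster 4 at E11.5 (60.4 CPM) and mesenchyme cluster 3 at E13.5 (13.6 CPM), and at E13.5 the next 3 in order overlapped their neighbours.

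Met was highest in E13.5 cluster 1, at 32.9 CPM (29.4 to 36.6, 334 UMIs). E11.5 cluster 14 had 7.67 CPM (4.19 to 12.9, 14 UMIs), above the erythroid cells of that library (0.327 CPM, 0.0396 to 1.18), cluster 15 had 3.12 CPM (8 UMIs) and cluster 19 had 0.515 CPM (1 UMI). At E11.5 cluster 14 was the highest, but its interval overlapped that of epithelial cluster 9 (2.45 CPM, 0.796 to 5.72), and against the whole epithelium its ratio was 3.25 (1.23 to 9.51). At E13.5 epithelial clusters 16 (9.78 CPM) and 9 (6.56 CPM) came next and did not overlap cluster 1. Muscle held 41.2% of the Met UMIs at E11.5, when the whole library had only 34, and 76.2% at E13.5. The ratio of muscle to all cells outside it was 18.4 (8.61 to 38.4) for Met in the younger library and 11.6 (9.33 to 14.6) in the older.

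**Figure D1:**
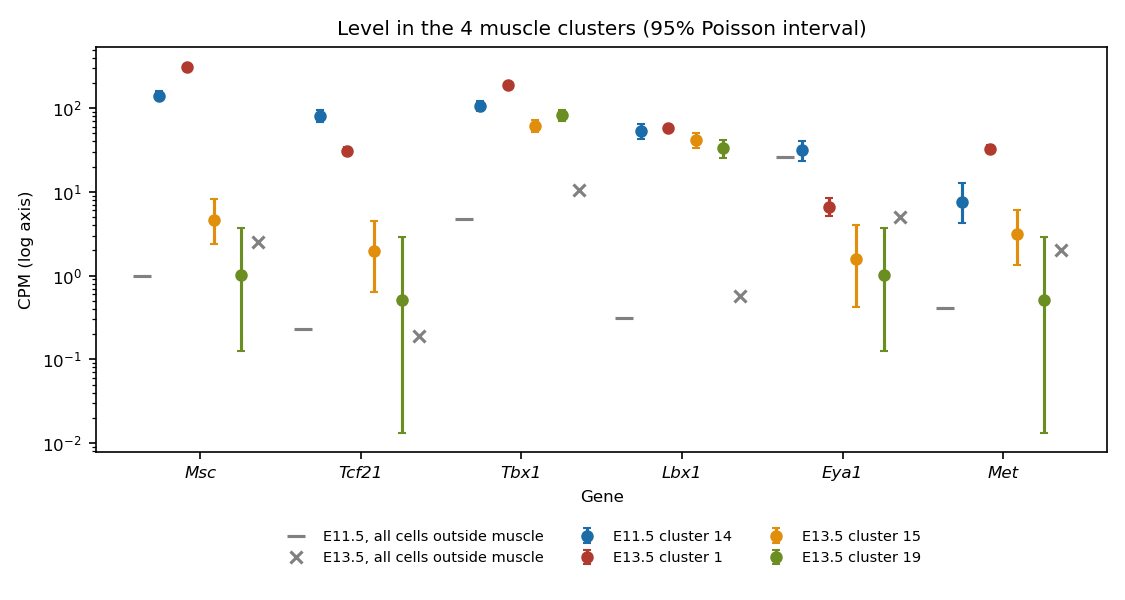
Level of each gene in CPM (log axis) in the 4 muscle clusters, as coloured points with exact Poisson 95% intervals, beside all cells outside muscle of each library in grey. Msc, Tcf21, Eya1 and Met drop in clusters 15 and 19, whereas Tbx1 (61.2 and 81.9 CPM) and Lbx1 (41.3 and 33.0 CPM) remain well above the grey marks.

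The first comparison asked how the muscle cells of E13.5 differed from those of E11.5. A gene was called where its ratio of CPM was at least 1.5-fold and the interval excluded 1, which is a rule of size and no test. It needed at least 20 UMIs over both groups, and all 6 genes had them in each comparison below. Over all muscle cells, 4 of the 6 genes were called, 2 higher and 2 lower, where 23.1% of the 11428 genes measured were called, 9.38% higher and 13.7% lower. Msc was 1.54-fold higher (1.36 to 1.75), a call that was lost when the tenth of cells with the most mesenchyme marker UMIs was left out (1.46) and with the mean of per-cell CPM (1.42). Met was 3.05-fold higher (1.79 to 5.64). Tcf21 was 3.69-fold lower (3.01 to 4.50), and Eya1 6.27-fold lower (4.35 to 8.99). Tbx1 had a ratio of 1.42 (1.22 to 1.65) and Lbx1 of 0.964 (0.780 to 1.20), neither of them called. The median log2 ratio was 0.22 over the 6 genes and −0.10 over all genes measured.

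The E13.5 muscle includes clusters 15 and 19, whereas the E11.5 muscle is 1 cluster, so the 2 cycling clusters were also set side by side. In E13.5 cluster 1 against E11.5 cluster 14, 5 of the 6 genes were called, 3 higher and 2 lower, where 18.3% of 10772 genes were called, 6.53% higher and 11.8% lower. Msc was 2.21-fold higher (1.95 to 2.52), Tbx1 1.75-fold higher (1.51 to 2.04) and Met 4.29-fold higher (2.52 to 7.93). Tcf21 was 2.60-fold lower (2.13 to 3.18) and Eya1 4.73-fold lower (3.26 to 6.84). Lbx1 had a ratio of 1.08 (0.867 to 1.35). The median log2 ratio of the 6 was 0.46, and −0.08 over all genes.

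Within the E13.5 library the clusters were made from the expression of these same cells, so their differences are a description. In cluster 15 against cluster 1, 5 of the 6 genes were called, all 5 lower, where 34.2% of 10866 genes were called and 22.4% were lower. Msc was 66.8-fold lower (38.2 to 129.5), Tcf21 15.9-fold lower (6.72 to 49.2) and Met 10.5-fold lower (5.29 to 24.6). Eya1 was 4.23-fold lower (1.58 to 15.98) and Tbx1 3.06-fold lower (2.60 to 3.62). Lbx1 was 1.38-fold lower (1.12 to 1.72), which is under the size for a call. The 6 genes thus covered a range from Msc to Lbx1, with a median log2 ratio of −2.74 where all genes had −0.18.

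In cluster 19 against cluster 1, all 6 genes were lower by the rule, where 46.3% of 10920 genes were called and 30.2% were lower. Msc, with 2 UMIs in cluster 19, had a ratio of 0.0033 (0.000399 to 0.0119), Tcf21 with 1 UMI a ratio of 0.0167 (0.000421 to 0.0936), and Met with 1 UMI a ratio of 0.0157 (0.000396 to 0.0879). Eya1, with 2 UMIs, had a ratio of 0.156 (0.0185 to 0.587). Tbx1 was 2.28-fold lower (1.94 to 2.70) and Lbx1 1.73-fold lower (1.34 to 2.28). The median log2 ratio was −4.29 over the 6 genes and −0.30 over all genes.

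Scaling by median-of-ratios size factors in place of UMI totals moved every ratio up. The log2 factor taken out was −0.12, −0.09, −0.18 and −0.28 in the 4 comparisons in the order given. With it the share of called genes that were higher moved from 40.7% to 54.3%, from 35.7% to 48.2%, from 34.4% to 49.2% and from 34.7% to 52.1%. Of the 6 genes, Tbx1 then passed the rule over all muscle (1.53-fold higher), and Lbx1 in cluster 19 no longer did (ratio 0.70). Lbx1 over all muscle moved to the other side of 1 (1.04), as it did with the mean of per-cell CPM (1.10), and was not called either way.

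The share of cells with a UMI was read after each cell had been thinned to 2000 UMIs, which left out 2 cells each of clusters 1 and 15. Erythroid cells, which should lack all 6 genes, gave the level of free RNA, with median depths of 13137 UMIs at E11.5 and 18517 at E13.5. Msc was found in 21.9% of cluster 14 (15.5 to 29.3%), 39.1% of cluster 1 (34.8 to 43.5%), 0.621% of cluster 15 and 0 of the 80 cells of cluster 19. A count of 0 allows up to 3 counts, here 3.75% of cells with a UMI at this depth, which does not limit the share of cells that express the gene. The erythroid shares were 0.219% and 0.485%, and the thinned shares of clusters 15 and 19 did not lie above them, although the CPM of cluster 15 did. Tbx1 was found in 18.5%, 30.0%, 9.32% and 11.25% of the 4 clusters, and Lbx1 in 11.9%, 10.8%, 4.97% and 8.75%. All 8 of these shares were above the erythroid interval. At 1000 UMIs Lbx1 was above it only in cluster 1, and without the tenth of cells with the most mesenchyme marker UMIs Lbx1 in cluster 15 (4.17%, 1.54 to 8.85%) was not.

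Tcf21 was found in 18.5% of cluster 14 and 6.51% of cluster 1, and in 0 cells of clusters 15 and 19, where 3 counts are 1.86% and 3.75% of the cells. At 1000 UMIs Tcf21 in cluster 1 (2.76%, 1.51 to 4.58%) overlapped the erythroid interval. Eya1 was found in 5.30% of cluster 14, above the 0.877% of erythroid cells (0.240 to 2.23%), but not without the tenth of cells named above (5.19%, 2.11 to 10.4%). In cluster 1 its 2.56% (1.37 to 4.34%) overlapped the erythroid interval (0.485%, up to 2.67%), whereas at full depth its 11.002% (8.42 to 14.05%) lay above 0.483% (up to 2.66%), as its 6.59 CPM did above 0.279 CPM (up to 1.55). Met was above the erythroid interval in cluster 1, at 5.72% (3.86 to 8.11%). In cluster 14 its thinned 0.662% was not above it, and its full-depth 9.27% (5.16 to 15.07%) was above 0.439% (up to 1.58%). In all, 14 of the 24 thinned shares lay above the erythroid interval, and 16 of 24 at full depth. Without thinning the shares in clusters 14, 1, 15 and 19 were 54.3%, 81.1%, 5.52% and 2.5% for Msc, 51.0%, 36.3%, 2.45% and 1.25% for Tcf21, and 64.9%, 89.8%, 52.1% and 75.0% for Tbx1. They were 44.4%, 63.1%, 42.9% and 47.5% for Lbx1, 32.5%, 11.002%, 2.45% and 1.25% for Eya1, and 9.27%, 45.2%, 4.91% and 1.25% for Met. These follow the depth of the cells as well as the level.

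**Figure D2:**
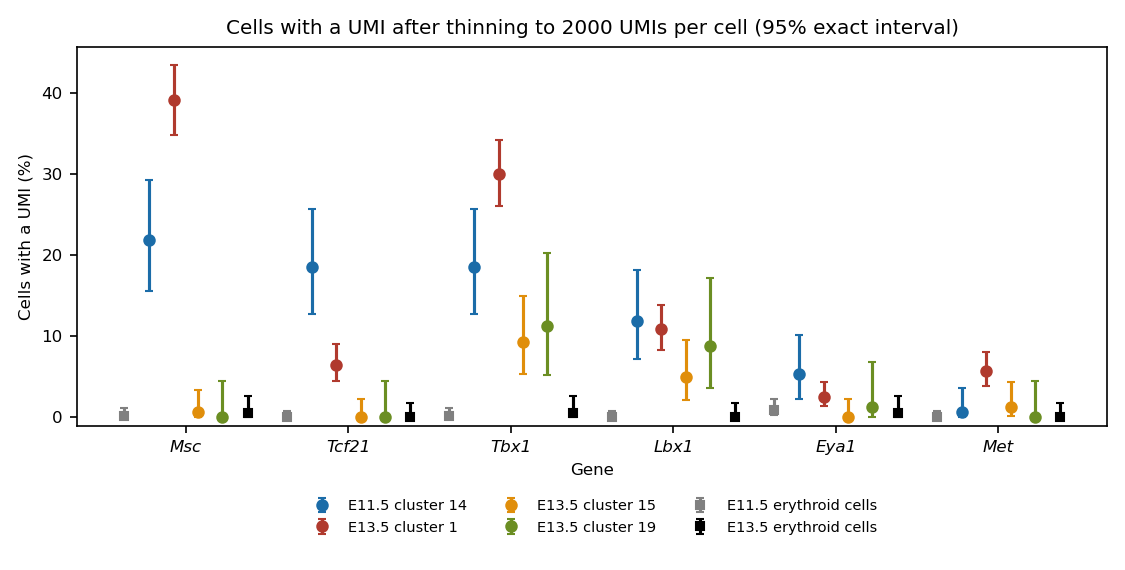
Share of cells with a UMI (%) after thinning to 2000 UMIs per cell, for the 4 muscle clusters as coloured points and for erythroid cells as grey or black squares, with exact Clopper-Pearson 95% intervals. Msc (39.1%) and Tbx1 (30.0%) are found in the most cells of cluster 1, and the squares lie at 0 to 0.877%.

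Cells within a cluster differed in Msc by more than counting error. At 6000 UMIs per cell, a depth chosen after the data had been seen, 65.4% of 503 cells of cluster 1 had Msc, 52 of them had 5 or more UMIs and the highest had 16. The variance of the Msc count was 2.50 times its mean in cluster 1 and 2.75 times in cluster 14, where counting alone gives about 1. For Tbx1 the same measure was 1.36 and 1.13, for Tcf21 1.36 and 1.23, and for Lbx1 1.14 and 1.24.

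Within the cycling clusters, cells with Myog had less Msc and Tcf21. This split, by whether a cell had a Myog UMI after thinning to 2000, was added after the data had been seen. In cluster 14 the 38 cells with Myog had 26.4 CPM of Msc and the 113 without had 179 CPM, a ratio of 0.147 (0.0751 to 0.262). For Tcf21 the values were 35.2 and 95.5 CPM (ratio 0.369, 0.205 to 0.622), and for Eya1 11.01 and 37.9 CPM (ratio 0.291, 0.0906 to 0.723). Tbx1 (0.855), Lbx1 (0.689) and Met (0.504) had ratios whose intervals include 1.

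In cluster 1 the 110 cells with Myog had 129 CPM of Msc and the 397 without had 364 CPM, a ratio of 0.356 (0.314 to 0.402). Tcf21 had the same kind of difference, 12.6 against 36.02 CPM (ratio 0.351, 0.229 to 0.518). Tbx1 was at 146 against 198 CPM (ratio 0.737, 0.652 to 0.831), a smaller difference than for the bHLH pair. The intervals of Lbx1 (0.933), Eya1 (0.704) and Met (0.869) include 1. Myog also differs between the deposited clusters, which were made from these genes, so the split is a description.

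**Figure D3:**
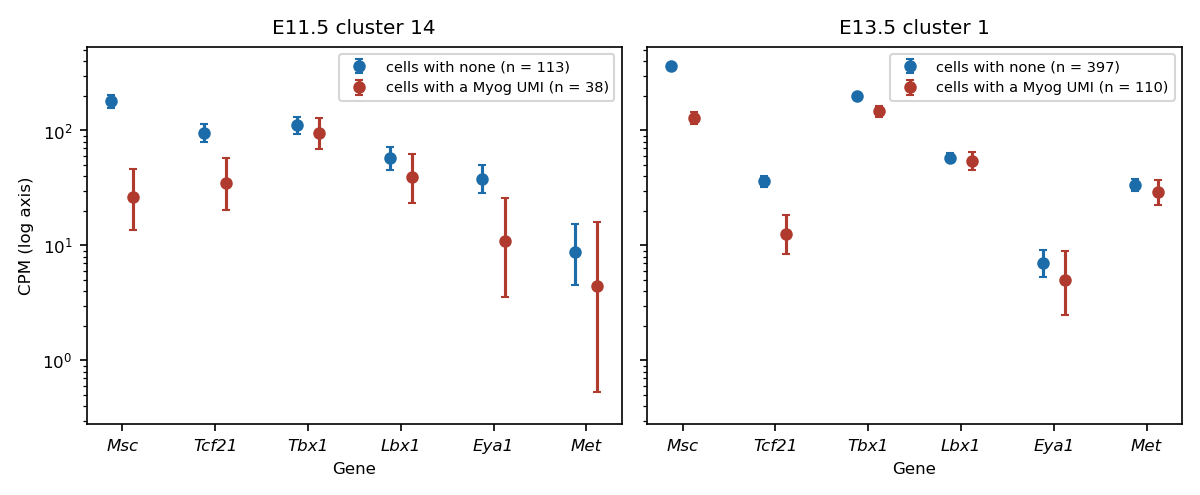
Level in CPM (log axis) of the 6 genes in cells with a Myog UMI (red) and without (blue), in E11.5 cluster 14 and E13.5 cluster 1, with exact Poisson 95% intervals. Msc and Tcf21 are lower in the cells with Myog in both panels, whereas the 2 points of Lbx1 and of Met overlap.

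Cells were also grouped by UMIs of progenitor factors (Pax7, Myf5) and later factors (Myod1, Myog), read after thinning to 2000 UMIs per cell. A cell placed in a group without a factor may hold UMIs of that factor at full depth. In cluster 1 the 33 cells with only progenitor factors had 528 CPM of Msc (473 to 588), the 233 cells with none of the 4 factors had 411 CPM (393 to 430), the 21 cells with both kinds had 225 CPM (182 to 276) and the 220 cells with only the later factors had 188 CPM (176 to 201). Msc was thus lower in both groups that had a later factor. In cluster 14 the same groups of 17, 77, 8 and 49 cells had 234, 184, 178 and 34.2 CPM, and only the last lay apart from the others. Lbx1 in cluster 1 was at 47.1, 62.4, 65.4 and 52.5 CPM, and these intervals overlap.

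By deposited phase, Msc in cluster 14 was at 89.7 CPM in G1, 132 CPM in S and 172 CPM in G2M. The ratio of G1 to G2M was 0.523 (0.342 to 0.776) and that of G1 to S 0.682 (0.438 to 1.04). Tbx1 had 0.668 (0.410 to 1.05) to G2M and 0.590 (0.361 to 0.932) to S, and Tcf21 0.590 (0.325 to 1.02) and 0.528 (0.290 to 0.914), so for each of the 3 genes only 1 of the 2 intervals excludes 1. In cluster 1 only 18 cells were in G1. There Msc had 1.22 (0.978 to 1.51) to G2M and 1.33 (1.06 to 1.65) to S, and Tbx1 had 0.636 (0.420 to 0.925) and 0.671 (0.443 to 0.977).

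After thinning to 2000 UMIs, members of the set were found together about as often as their separate shares give. At 2000 UMIs 55.6% of cells of cluster 14 had at least 1 of the 6 genes and 18.5% at least 2. In cluster 1 these shares were 65.5% and 23.7%, and in clusters 15 and 19 16.1% and 21.25% had at least 1 and 0% at least 2. Over all muscle cells, the count that independent detection within each cluster gives lay inside the exact interval of the observed count for all 15 pairs. Without thinning, 2 of the 15 pairs were found together in more cells than that, Msc with Tcf21 and Tcf21 with Eya1. Lbx1, known from migrating somite precursors, and Msc, known from the arches, were both found in 27 cells of cluster 1 where 21.5 were expected. At 6000 UMIs they shared 94 cells of cluster 1 where 91.6 were expected and 19 cells of cluster 14 where 14.4 were expected, so no separation of the 2 genes into different cells was detectable at this depth. Lbx1 and Met shared 24 cells of cluster 1 where 27.8 were expected.

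Outside muscle, Tbx1 was found in the endothelium and in part of the epithelium. Endothelium stood at 76.7 CPM (63.1 to 92.3) at E11.5, where the muscle ratio to it was 1.39 (1.10 to 1.77), and at 60.9 CPM (49.1 to 74.8) at E13.5, which overlaps clusters 15 and 19. Epithelial cluster 9 had 29.9 CPM at E11.5, and at E13.5 epithelial clusters 9 and 16 had 63.3 and 34.8 CPM. In the endothelium, the 5 cells at E11.5 with a UMI of Prox1, a factor of lymphatic endothelium, had 190 CPM (101 to 326) and the other 157 had 71.0 CPM (57.7 to 86.6). At E13.5 the 7 cells with Prox1 had 137 CPM (76.5 to 225) and the other 130 had 54.9 CPM (43.3 to 68.7). This split was chosen after the values had been seen, and it rests on 12 cells. Prox1 was also found in muscle, at 7.12 CPM in E11.5 cluster 14, where the endothelium had 8.29 CPM. At E13.5 muscle cluster 15 was the highest cluster for Prox1 (20.3 CPM). The endothelial cells with Prox1 were deeper, with a median of 13586 against 7620 UMIs at E11.5 and 10953 against 7456 at E13.5. Whether they were mixed with muscle cells was not tested.

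Eya1 was lower at E13.5 outside muscle as well as in it. Mesenchyme went from 32.2 to 7.06 CPM, 4.56-fold lower (3.97 to 5.26), and epithelium from 10.4 to 1.32 CPM, 7.92-fold lower (4.09 to 16.1). Erythroid cells stood at 3.43 CPM (21 UMIs) at E11.5 and had 1 UMI at E13.5, and the part of free RNA in these values was not tested. Met in the epithelium went from 2.36 to 5.47 CPM, a ratio of 2.32 (1.06 to 6.02). In the mesenchyme, at low levels, Msc went from 0.992 to 2.27 CPM, a ratio of 2.29 (1.53 to 3.49). Tbx1 there went from 1.21 to 2.94 CPM (2.44, 1.70 to 3.55) and Met from 0.214 to 1.02 CPM (4.76, 2.17 to 11.9). The mesenchyme intervals of Tcf21 and Lbx1 include 1, as does that of Tbx1 in the endothelium (0.795, 0.596 to 1.06). The part of free RNA in these values was not tested either.

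**Figure D4:**
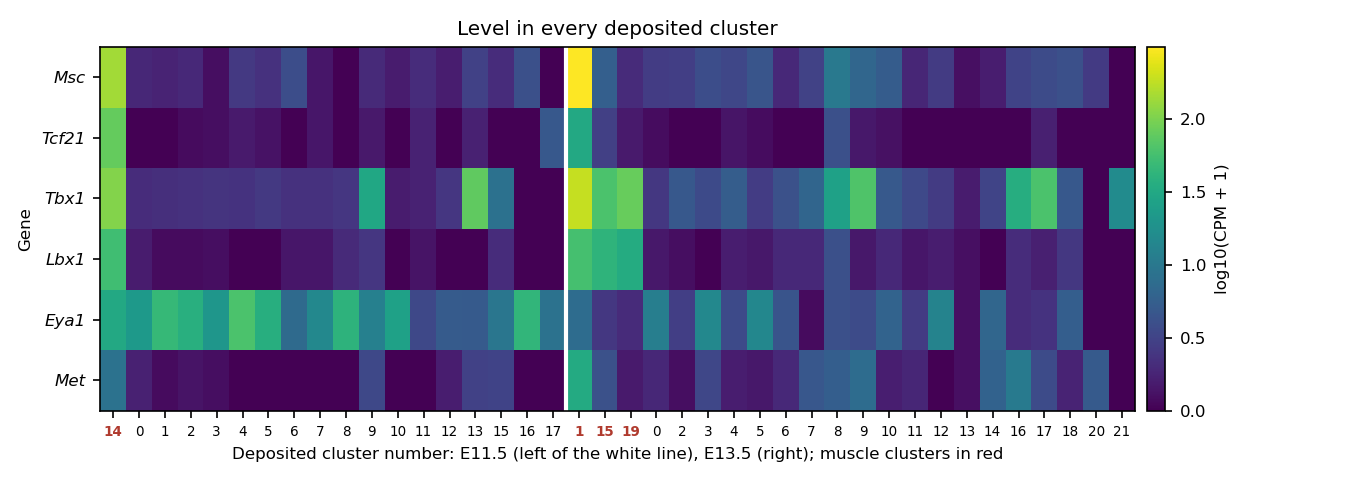
Level of the 6 genes, as colour on the scale log10(CPM + 1), in all 18 clusters of E11.5 and 22 clusters of E13.5, with muscle clusters at the left of each block and numbered in red. Lbx1 is bright in every muscle cluster. Msc and Tcf21 are bright in E11.5 cluster 14 and E13.5 cluster 1 and much dimmer in E13.5 clusters 15 and 19. Tbx1 is bright in muscle and also in endothelium (E11.5 cluster 13, E13.5 cluster 17) and in epithelial cluster 9, and Eya1 over most of the E11.5 mesenchyme.

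Eya1 acts in a network that includes Pax, Eya and Dach genes. Of 10 other genes listed for that network, 9 were measured over all muscle. At E13.5, 1 was higher and 4 were lower, where 9.38% of all genes were higher and 13.7% lower. The median log2 ratio was −0.56 where all genes had −0.10. Pax7 was 2.24-fold higher. Pax3, a factor of migrating muscle precursors, was 3.42-fold lower, Six2 2.16-fold, Six4 2.04-fold and Eya2 2.80-fold lower. Pax3 was higher in mesenchyme than in muscle, at 107 CPM in E11.5 cluster 8 against 30.1 CPM in cluster 14. At E13.5 it had 246 CPM in mesenchyme cluster 0 against 5.67 to 9.74 CPM in the muscle clusters. The part of free RNA or mixed cells in its muscle values was not tested. Cluster 1 against cluster 14 also had 1 of 9 higher and 4 lower, where 6.53% and 11.8% of all genes were. There Pax7 was 3.24-fold higher and Pax3, Six2, Six4 and Eya2 were 1.55-fold to 3.29-fold lower. In cluster 15 against cluster 1, 2 of 9 were lower (Pax7 with 0 UMIs, Six2 7.35-fold), about the 22.4% of all genes that were lower there. In cluster 19, 4 of 9 were lower, where 30.2% of all genes were (Pax7 with 0 UMIs, Six2, Six4 and Eya3), and Dach1, a co-repressor of this network, was 10.3-fold higher (6.95 to 15.6). With size factors Six2 in cluster 1 and Six4 and Eya3 in cluster 19 were no longer called.

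Hgf, the ligand of Met, was found outside muscle. It had 0 UMIs in cluster 14 and 2 UMIs in all E13.5 muscle. In the mesenchyme its level was 0.777 CPM in the younger library and 5.04 CPM in the older, 6.49-fold higher (4.36 to 9.98), and the highest cluster was E13.5 cluster 3 at 15.4 CPM. Of 12 genes of HGF-MET signalling and precursor migration, 8 were measured in muscle. The counts higher and lower were 1 and 1 over all muscle (9.38% and 13.7% of all genes), 0 and 2 in cluster 1 against cluster 14 (6.53% and 11.8%), 2 and 3 in cluster 15 against cluster 1 (11.7% and 22.4%), and 1 and 2 in cluster 19 (16.1% and 30.2%). The adaptor Grb2 was 2.26-fold higher at E13.5 over all muscle and 9.25-fold higher in cluster 19 than in cluster 1, and the chemokine receptor Cxcr4 was 3.05-fold lower at E13.5. In cluster 1 against cluster 14, Gab1, the docking protein of Met, was 1.89-fold lower and Cxcr4 2.26-fold lower, and 0 were higher. Cluster 15 against cluster 1 had Spint2 and Grb2 higher and Sos1, Cxcl12 and Cxcr4 lower, and cluster 19 had Ptpn11 and Cxcr4 lower. With size factors the calls of Gab1 in cluster 1 and of Sos1 and Cxcl12 in cluster 15 were lost, and Spint2 in cluster 19 was called higher (1.54-fold).

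Of 3 other measured upstream genes of head muscle, Isl1 and Nkx2-5 were called lower in 0 comparisons, and Lhx2 was called lower in clusters 15 and 19. Nkx2-5 was at 137, 161, 298 and 431 CPM in clusters 14, 1, 15 and 19, and the call was higher for all muscle (1.60-fold), cluster 15 (1.85-fold) and cluster 19 (2.69-fold). Isl1 was 2.86-fold higher over all muscle and 2.88-fold higher in cluster 1 than in cluster 14. Over all muscle Isl1 and Nkx2-5 were thus 2 of 3 called, both higher, where 9.38% of all genes were higher. With size factors Isl1 was also called higher in cluster 19 (1.68-fold). Lhx2, with 30 UMIs in cluster 1, had 1 in cluster 15 (ratio 0.132, 0.00324 to 0.794) and 0 in cluster 19. Clusters 15 and 19 against cluster 1 each had 1 of 3 higher and 1 lower. Over all genes 11.7% and 16.1% were higher there, and 22.4% and 30.2% lower. Cluster 1 against cluster 14 had 1 higher and 0 lower, where 6.53% and 11.8% of all genes were.

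Most myogenic factors were higher in clusters 15 and 19, where Msc was lower. Of 6 measured over all muscle, Myod1 (2.31-fold), Myog (2.61-fold), Mef2c (7.09-fold) and Tmem8c, the fusion gene myomaker (19.9-fold), were higher and Myf5 was 2.61-fold lower, where 9.38% of all genes were higher and 13.7% lower. Cluster 1 against cluster 14 instead had 0 higher and 4 lower, namely Myf5, Myog, Myf6 and Mef2c (11.8% of all genes were lower), although with size factors Mef2c lost its call and Myod1 was called higher (1.54-fold). In cluster 15, 4 of 5 were higher than in cluster 1, with Myog 25.1-fold (24.02 to 26.3), and in cluster 19, 5 of 6 were higher, where 11.7% and 16.1% of all genes were. Myf5 was the exception in both, 7.64-fold and 3.97-fold lower.

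Several dimer partners and inhibitors of bHLH factors were lower, with Msc, in clusters 15 and 19. The Id proteins hold E proteins (Tcf3, Tcf4, Tcf12) away from DNA. In cluster 15 against cluster 1, 4 of 7 were lower and 0 higher, namely Id1 (2.18-fold), Id2 (1.96-fold), Id3 (2.48-fold) and Tcf3 (1.56-fold). In cluster 19, 5 of 7 were lower, with Id3 5.32-fold and Tcf12 1.65-fold. Over all genes 22.4% and 30.2% were lower in these comparisons, and the median log2 ratios of the list were −0.97 and −1.28 where all genes had −0.18 and −0.30. The calls of Tcf3 in cluster 15 and of Tcf12 in cluster 19 were lost with size factors. Between the stages, Tcf4 was 1.60-fold higher and Id2 2.13-fold lower over all muscle, and cluster 1 also had Id1 1.52-fold higher than cluster 14.

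The genes most like each member were ranked by Pearson correlation of log2(CPM + 1) over the 39 clusters with at least 50 cells, among 11856 genes. The clusters share 2 libraries and differ in depth, and few of them are muscle, so the coefficients describe the pattern only. For Msc the closest were Tcf21 (0.897), Pax7 (0.828) and Myf5 (0.820), and for Tcf21 they were Myf5 (0.904), Msc (0.897) and Pax7 (0.802). For Lbx1 they were Fitm1 (0.937), Nkx2-5 (0.930) and Pitx3 (0.928), genes of all 4 muscle clusters. Tbx1 was closest to Tlx1 (0.855), N4bp3 (0.804) and Prox1 (0.791), and Met to Lfng (0.739), Shtn1 (0.727) and Barx2 (0.708). Eya1 was closest to Glcci1 (0.866), Ahcy (0.836) and Gng10 (0.832), and had a coefficient of 0.0481 with Msc, its neighbour on chromosome 1.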

How the data were processed

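Mandibular prominences of CD1 embryos were dissected at E11.5 and E13.5 and sequenced on a 10x Chromium instrument, 1 library per stage, per the labels' protocols. The authors deposited raw UMI counts for each gene in each cell, 49913485 UMIs in all at E11.5 (median 6231 per cell) and 67838169 at E13.5 (median 9280). They also deposited metadata with count totals, a mitochondrial fraction, cell cycle score values and phase calls, clusters and lineage names. Cell Ranger 2.0.0, Seurat 2.3.4 and mm10 are named in the submitters' processing notes. The sources name no annotation release, doublet removal or use of strand. The deposited cells reach down to 2253 and 500 UMIs and up to 7.90% and 19.98% mitochondrial UMIs. The score values were not used, and no doublet caller was run.

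UMIs were summed per cluster, divided by the cluster's total to CPM and given exact Poisson intervals. Ratios have exact conditional binomial intervals and shares Clopper-Pearson intervals. A call needs a 1.5-fold ratio, an interval excluding 1 and 20 UMIs, and is no test. Mesenchyme, epithelium, endothelium and erythroid cells follow the deposited lineage names, with 2 exceptions. E11.5 cluster 17 was left out of the mesenchyme, and E13.5 cluster 5, deposited as osteogenic progenitors, was counted in it. Cells were thinned to 2000 UMIs without replacement. The ratio code was tested on simulated data. Named are the 6 genes, the called, ligand or partner genes of 5 lists with 40 genes, and the 3 genes most like each of the 6. Further listed genes are not reported here, and the list counts leave them out. The members and lists were chosen with earlier results of these data known. Alternatives were another scaling, cell limits, removal of possible mixed cells, per-cell means, no UMI minimum, cells without Xist and other thinning depths. Scripts ran in Python 3.11.15 with scipy 1.17.1, numpy 2.4.6, matplotlib 3.10.9 and pandas 2.3.3.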

Additional observations from a re-analysis of the deposited data

How the results depend on the processing

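Of 177 recomputed values, 174 stayed within the spread set for them. That spread was wide, since a fall from 14 to 10 shares above background counted as within it. The ratios without a UMI minimum equal the main ones by construction, because only the choice of genes changes, and they are included in these tallies. Of 144 recomputed ratios, 2 crossed 1, both Lbx1 over all muscle, which was not called (1.04 with size factors, 1.10 with the mean of per-cell CPM), and 4 changed their call. Without thinning, 2 of 15 pairs were found together in more cells than independent detection gives, where 0 were at 1000, 2000 or 6000 UMIs: Msc with Tcf21 in 220 cells (192.2 expected) and Tcf21 with Eya1 in 60 (45.5 expected). Depth differs between cells there, and the cause was not tested. Tbx1 in cluster 19 over cluster 1 moved to 0.532 under size factors, and Eya1 to 0 when the tenth of cells with the most mesenchyme marker UMIs was left out, since both UMIs were in those cells. Msc over all muscle fell under the 1.5-fold size without those cells (1.46) and with the mean of per-cell CPM (1.42). Muscle held 294 CPM of Xist, an RNA of female cells, at E13.5 and 0 at E11.5, so the stages may also differ in sex. A gene not listed for a library also counts as 0, and 1831 genes were listed at E13.5 only. The 0 thus does not by itself tell absent RNA from an unlisted gene. Among cells with no Xist UMI (all 151 at E11.5 and 478 at E13.5), no call changed. The count of shares above background was 14 of 24 at 2000 UMIs, 10 at 1000 UMIs, 16 without thinning and 12 without the tenth of cells with the most mesenchyme marker UMIs. No paired analysis was possible because each stage is 1 library and no test was run. The 6000 UMI depth was added after seeing the data.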
